A study of Mus musculus with 39 samples.

Results

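The tumour necrosis factor (TNF) superfamily was examined in bulk RNA from 39 AB1-HA tumours. Members were taken by gene symbol, as every gene named Tnfsf (ligands) or Tnfrsf (receptors) followed by a number, and were then chosen by their measured values, at least 10 raw counts in at least 4 tumours. All 23 symbols that matched passed this floor, of 39676 genes in the table. They were 9 Tnfsf genes, of which Tnfsf13os is an antisense RNA and not a ligand, and 14 Tnfrsf genes. The count of Tnfrsf17 reached 10 in exactly 4 tumours, that of Tnfsf15 in 14, that of Tnfsf4 in 17 and that of Tnfsf18 in 25, and no matching gene was below the floor. Members such as Tnfsf9, Tnfsf11, Tnfsf14, Tnfrsf10b, Tnfrsf11b and Tnfrsf13c were not analysed here.

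AB1-HA is a mouse mesothelioma line that carries the haemagglutinin gene of influenza virus, and all tumours grew under the skin of BALB/c mice aged 8 to 10 weeks by the study's methods. 10 mice received PBS, which held DMSO as vehicle. 9 mice received Tretinoin, all-trans retinoic acid, as 5 intraperitoneal doses of 5 mg/kg per the labels, from day 4, although the study's text gives other doses and numbers of doses in places. 10 mice received ICT, immune checkpoint therapy with 100 µg each of anti-CTLA-4 and anti-PD-L1 on day 7. 10 mice received Tretinoin+ICT at the same doses and days, and the labels divide them into 6 Responder and 4 Non-responder mice. Every tumour was taken on day 9, and each mouse gave 1 tumour to sequencing. By the study's methods, response was read from a second tumour left in place on the other flank, not from the sequenced tumour.

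The whole tumour was sequenced, so fewer cells of a type and less RNA per cell cannot be told apart in any value below. The deepest tumour had 37951183 counts in all and the shallowest 14033046 (median 18548168). As a check of the tissue label, the mesothelial markers Wt1, Upk3b and Lrrn4 summed to 5.61 to 18.2 normalized counts in PBS and 16.3 to 103 in Tretinoin+ICT tumours. These markers were thus low for a line described as mesothelioma, whose tumours the study calls sarcomatoid (Msln was not analysed here). In the 2 PBS name series Wt1 averaged 11.39 and 10.75, Upk3b 0 and 0.22, and Lrrn4 0.38 and 1.45. Wt1 rose in all 3 comparisons with PBS, by 1.12, 1.40 and 2.39 on the log2 scale. The 4 Y-linked genes looked at had at most 2 raw counts in any tumour and Xist at least 4684, so all 39 tumours read as coming from female mice. The first digit of a tumour's name gives 2 name series for each treatment, and no series holds 2 treatments, so series and treatment cannot be told apart. Tumours 14 (PBS), 33 (Tretinoin) and 63 (ICT) stood apart. They were the highest of their group for 13, 14 and 14 of the 23 members, and also the highest of their group for the summed macrophage and T cell markers. Tumour 82, the highest ICT tumour for the CD8 T cell and dendritic cell markers, was the fourth tumour left out in the repeats below.

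TNF superfamily ligands are mostly trimers on the cell surface or shed from it, and they signal by clustering their receptors. Some receptors carry a death domain and can start apoptosis. Others bind TRAF adaptors and activate NF-kB, and on T cells these act as costimulators. Decoy receptors bind ligand without signalling. OX40 (Tnfrsf4) and GITR (Tnfrsf18) are receptors of this kind on regulatory and activated T cells, and the study also treated tumours with agonist antibodies to both.

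Levels between members were compared per kilobase of exon, on the normalized count scale, for the 22 members with a known exon length. In PBS tumours Tnfrsf1a, the TNF receptor with a death domain, was the highest at 1159 ± 82.5 (SD, n = 10), and Tnfrsf1b, the TNF receptor of leukocytes and endothelium, followed at 603.2 ± 71.03. The ligand Tnfsf12 (TWEAK) at 253 ± 27.7 and Tnfrsf11a (RANK) at 246 ± 33.5 lay within their spread of each other. Tnfrsf22 and Tnfrsf23 came next at 171 ± 17.9 and 170 ± 15.6, also within their spread. Tnfrsf18, Tnfrsf4, Tnfrsf13b, Tnfrsf9 and Tnfsf10 formed a group between 130 and 89.1 whose neighbours did not differ beyond their spread. Tnfsf4 and Tnfsf15 were the lowest at 4.15 ± 1.40 and 1.89 ± 1.14. Tnfsf18, the ligand of GITR, stood at 8.58 ± 4.08 and Tnfsf4, that of OX40, lower still, whereas their receptors stood at 130 ± 27.2 and 119 ± 27.7.

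**Figure D1:**
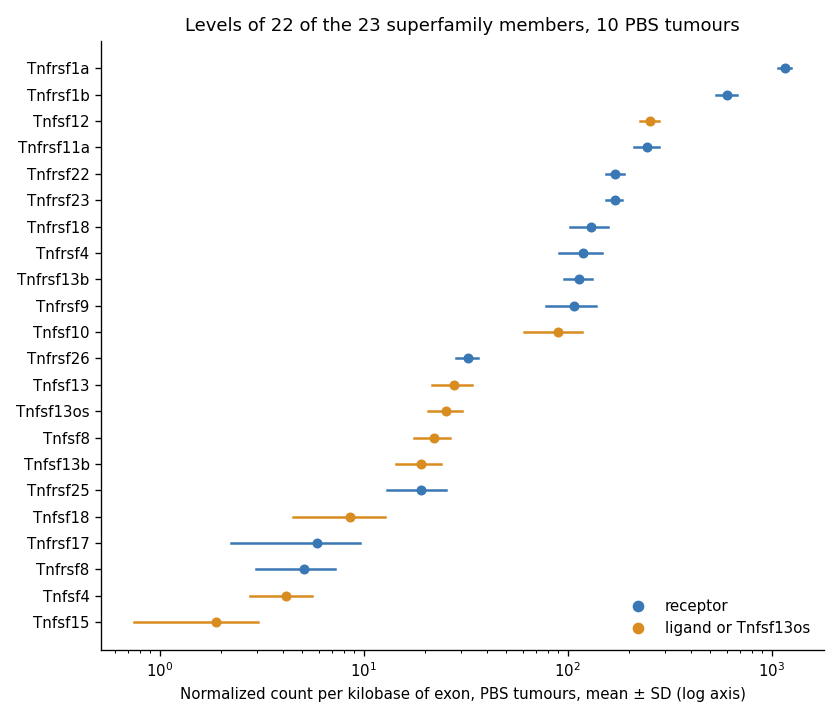
Normalized count per kilobase of exon (x axis, log scale) of 22 members in the 10 PBS tumours, with receptors in blue and ligands or Tnfsf13os in orange. Points are means and lines 1 SD. Tnfrsf1a at 1159 and Tnfrsf1b at 603 lie above all others, and Tnfsf15 at 1.89 lies lowest.

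The question asked of each treatment was which members differed from PBS tumours. A member was called at an adjusted p below 0.05 from edgeR over all genes tested, and those that also differed by 1 or more on the log2 scale in either direction were counted again. In tretinoin treated tumours 7 of the 20 members tested were upregulated, against 11.5% of all genes tested, and 3 were downregulated, against 8.95%. Of these, 2 passed the fold minimum (1.62% of all genes). With ICT 6 members were upregulated (14.1% of genes) and 1 was downregulated (7.15%), and 0 passed the fold minimum (2.35%). DESeq2 passed 1. With Tretinoin+ICT 12 members were upregulated (25.7% of genes), 2 were downregulated (24.5%) and 5 passed the fold minimum (5.92%). The median log2 fold change of the 20 members was 0.21 with tretinoin, 0.26 with ICT and 0.55 with the combination, whereas that of all genes was between -0.02 and 0.01. These 3 comparisons share the PBS tumours. Tnfsf4, Tnfsf15 and Tnfrsf17 were too low for these fits.

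**Figure D2:**
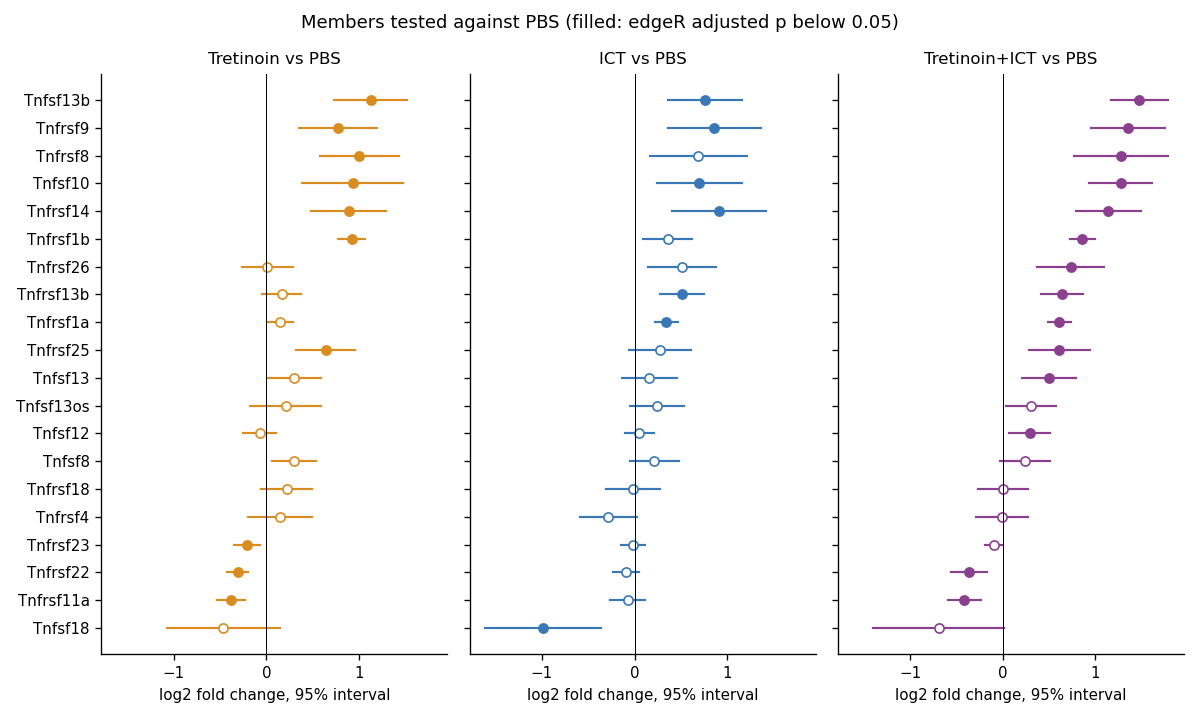
Log2 fold change (x axis) of the 20 members tested in Tretinoin, ICT and Tretinoin+ICT tumours against PBS, ordered by the combination panel. Lines are 95% intervals and filled points have an edgeR adjusted p below 0.05. Tnfsf13b, Tnfrsf9, Tnfsf10 and Tnfrsf14 are filled to the right of 0 in all 3 panels, and Tnfrsf11a and Tnfrsf22 are filled to the left of 0 in the Tretinoin and Tretinoin+ICT panels.

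The BAFF axis supports B cells. Tnfsf13b encodes BAFF, a B cell survival factor that myeloid cells secrete, and had the largest fold change of all members with tretinoin and with Tretinoin+ICT against PBS. BAFF transcripts stood at 92.8 to 202 normalized counts in PBS tumours (median 128), 167 to 564 with tretinoin (median 248), 122 to 409 with ICT (median 187) and 232 to 502 with Tretinoin+ICT (median 375). Every combination tumour was above every PBS tumour, as were 6 of 9 tretinoin and 4 of 10 ICT tumours. The log2 fold change against PBS was 1.12 with tretinoin (SE 0.20, adjusted p = 0.000686), 0.76 with ICT (SE 0.21, adjusted p = 0.0141) and 1.47 with Tretinoin+ICT (SE 0.16, adjusted p = 5.56e-07). Across the 4 pairs of name series the tretinoin difference was between 0.70 and 1.41.

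The related ligand Tnfsf13 (APRIL) rose by 0.50 on the log2 scale with Tretinoin+ICT (adjusted p = 0.00826), and was not called with tretinoin (0.30, adjusted p = 0.161) or ICT (0.16, adjusted p = 0.464). Its exons share 60% of their bases with the readthrough gene Tnfsfm13, and 13.5% lie opposite Tnfsf13os, so its counts are uncertain, as are those of Tnfsf12, which shares 48.3%. The antisense RNA Tnfsf13os was not called, at 0.21, 0.24 and 0.31. Tnfrsf13b, the receptor TACI that binds both ligands, had means of 323 ± 50.6 with PBS (SD, n = 10), 361 ± 76.1 with tretinoin (n = 9), 461 ± 104 with ICT (n = 10) and 502 ± 112 with Tretinoin+ICT (n = 10). It was upregulated with ICT (log2 fold change 0.51, adjusted p = 0.00766) and with the combination (0.64, adjusted p = 0.000112) but did not pass the test with tretinoin (0.17, adjusted p = 0.284). Tnfrsf17, the plasma cell receptor BCMA, had 0 to 15 raw counts in any tumour and was too low to be tested. The summed level of the B cell markers was 90.7 to 175 in PBS, 99.2 to 268 in tretinoin, 74.5 to 237 in ICT and 101 to 297 in Tretinoin+ICT tumours. The macrophage markers rose in 2 of 5, 5 of 5 and 5 of 5 cases. Their part in the rise of Tnfsf13b was not tested.

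Tnfrsf1b encodes TNFR2, which has no death domain and costimulates T cells, including regulatory T cells. Its normalized count was 1991 to 2957 in PBS tumours (median 2292), 3715 to 5603 with tretinoin (median 4189), 2159 to 4925 with ICT (median 2709) and 3346 to 4859 with Tretinoin+ICT (median 4103). All 9 tretinoin and all 10 combination tumours were above every PBS tumour, whereas 3 ICT tumours were. Tnfrsf1b was the only member whose tretinoin and PBS groups did not overlap upward (1.49% of genes tested did so), and 0 members did so downward (0.558%). In Tretinoin+ICT, 3 members were above all PBS tumours without overlap, Tnfrsf1a, Tnfrsf1b and Tnfsf13b (3.79% of genes), and 0 were below (1.87%). The log2 fold change was 0.92 with tretinoin (SE 0.07, adjusted p = 3.03e-08), 0.36 with ICT (SE 0.13, adjusted p = 0.0613) and 0.86 with the combination (SE 0.07, adjusted p = 2.67e-08). Ptprc, the pan-leukocyte marker CD45, had a log2 fold change of 0.14 with tretinoin (adjusted p = 0.562), 0.57 with ICT (adjusted p = 0.0723) and 0.72 with the combination (adjusted p = 0.000656).

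Tnfrsf1a showed a different order of groups, at 2580 to 3316 normalized counts with PBS (median 2983), 2735 to 4048 with tretinoin (median 3327), 3121 to 4660 with ICT (median 3814) and 3985 to 5682 with Tretinoin+ICT (median 4358). The ICT and PBS groups overlapped only between 3121 and 3316. Tnfrsf1a was upregulated with ICT (log2 fold change 0.34, SE 0.06, adjusted p = 0.00147) and the combination (0.61, SE 0.06, adjusted p = 3.88e-07), and was not called with tretinoin (0.15, SE 0.07, adjusted p = 0.124). Of their ligands, Tnf was called only in the combination, and Lta in all 3 comparisons. Tnf had a log2 fold change of 0.78 there (adjusted p = 0.00624), and 0.50 and 0.37 with tretinoin and ICT, neither of which passed the test. Lta, which encodes lymphotoxin alpha, rose by 0.60 with tretinoin, 1.32 with ICT and 1.78 with the combination.

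Promoter sequences are shown for Tnfsf13b, which held the one direct repeat found, and for Tnfrsf1b and Tnfrsf14, which rose with tretinoin and held an interferon-stimulated core. RefSeq promoters on GRCm38.p6, from 250 bases before to 50 bases after a start site, were found for 18 of the 23 members (21 promoters) and searched on both strands. The searches were 2 copies of AGNTCA spaced by 5 or by 2 bases (direct repeats bound by retinoic acid receptors), 2 copies of GAAA spaced by 2 bases (the core of the interferon-stimulated response element), TTC and GAA spaced by 3 bases (the core of the gamma-activated site) and GGGA, any base, TTTCC (an NF-kB site). Capitals mark the matches, and each sequence reads 5′ to 3′ on the strand of its gene.
Tnfsf13b, chr8:10006217-10006516, plus strand: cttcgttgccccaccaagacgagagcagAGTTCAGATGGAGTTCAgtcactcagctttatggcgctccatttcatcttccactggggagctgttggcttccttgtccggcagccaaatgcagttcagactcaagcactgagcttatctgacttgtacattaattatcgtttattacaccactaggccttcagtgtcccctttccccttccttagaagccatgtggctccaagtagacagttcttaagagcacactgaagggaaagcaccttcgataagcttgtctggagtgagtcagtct
Tnfrsf1b, chr4:145246821-145247120, minus strand: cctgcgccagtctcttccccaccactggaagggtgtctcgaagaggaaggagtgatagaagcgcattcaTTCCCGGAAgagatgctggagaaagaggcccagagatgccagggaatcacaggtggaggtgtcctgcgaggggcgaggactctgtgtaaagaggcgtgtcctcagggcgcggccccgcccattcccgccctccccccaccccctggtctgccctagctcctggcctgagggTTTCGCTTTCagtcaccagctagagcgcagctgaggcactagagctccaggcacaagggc
Tnfrsf14, chr4:154928028-154928327, minus strand: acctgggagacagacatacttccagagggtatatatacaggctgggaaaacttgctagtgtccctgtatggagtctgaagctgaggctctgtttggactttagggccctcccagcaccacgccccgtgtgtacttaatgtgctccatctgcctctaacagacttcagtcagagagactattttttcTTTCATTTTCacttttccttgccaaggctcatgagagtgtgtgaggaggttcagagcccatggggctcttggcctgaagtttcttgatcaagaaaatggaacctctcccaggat

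The direct repeat with 5 bases between its copies stood in 1 member, Tnfsf13b, from 222 to 206 bases before the first of its 2 start sites, and in 0.204% of all promoters of this length. The interferon-stimulated core stood in 4 members, Tnfsf13b (at the second start site, from 16 to 7 bases before it), Tnfrsf1b, Tnfrsf14 and Tnfrsf17, and in 3.44% of all promoters. The gamma-activated core stood in 5 members, Tnfrsf1a, Tnfrsf1b, Tnfrsf9, Tnfrsf18 and Tnfrsf25, and in 8.3% of all promoters. The direct repeat with 2 bases between its copies and the NF-kB letters were found in 0 members, against 0.107% and 0.411% of all promoters. These matches describe letters in a window and no binding was measured.

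**Figure D3:**
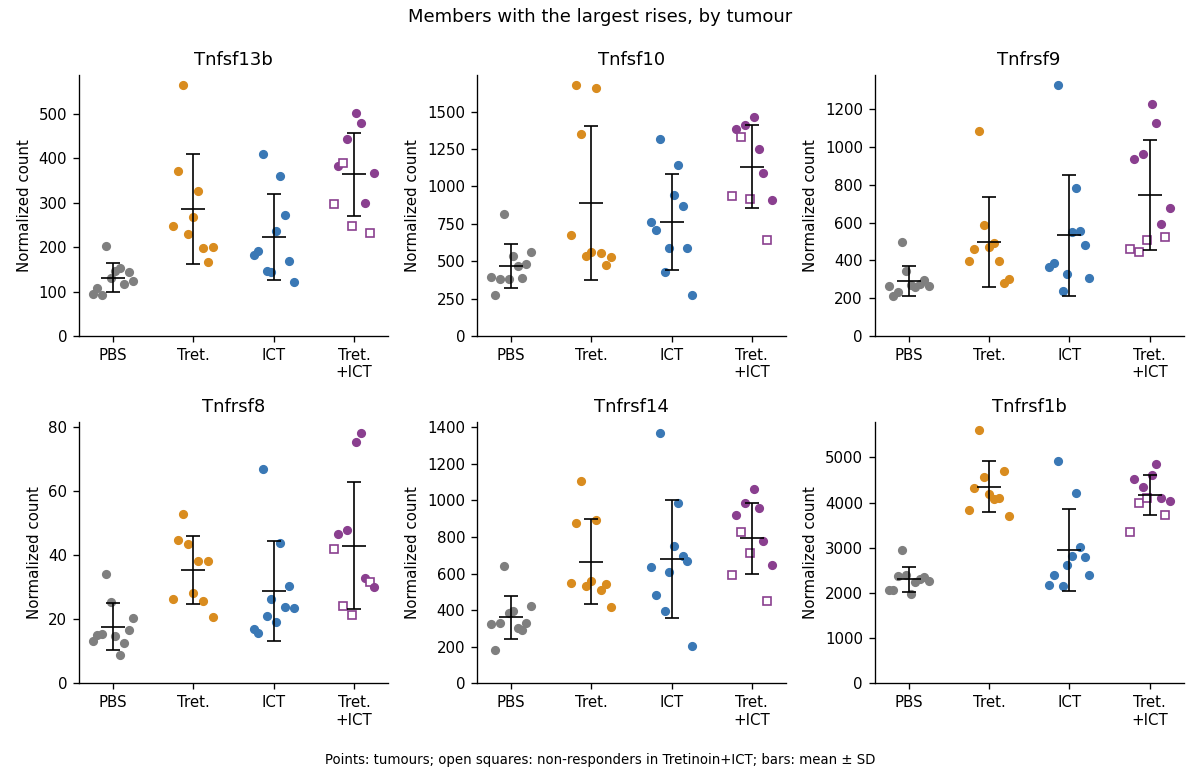
Normalized count (y axis, from 0) of Tnfsf13b, Tnfsf10, Tnfrsf9, Tnfrsf8, Tnfrsf14 and Tnfrsf1b in each tumour of the 4 groups. Points are tumours, open squares non-responders, and bars the mean and SD. The tretinoin and combination tumours lie above all PBS tumours for Tnfrsf1b, and 1 ICT tumour (63) is the highest of its group in each panel.

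Of the TRAIL genes, the ligand rose and a decoy receptor fell. Tnfsf10 encodes TRAIL, an apoptosis-inducing ligand whose transcription interferons raise. TRAIL transcripts stood at 278 to 816 normalized counts in PBS (median 434), 477 to 1675 in tretinoin (median 563), 275 to 1318 in ICT (median 735) and 641 to 1460 in Tretinoin+ICT tumours (median 1170). Within the tretinoin group tumours 32, 33 and 71 stood at 1675, 1348 and 1657, and the other 6 between 477 and 676, so the group mean rests on 3 tumours. The log2 fold change was 0.93 with tretinoin (SE 0.28, adjusted p = 0.0264), 0.70 with ICT (SE 0.23, adjusted p = 0.0401) and 1.27 with the combination (SE 0.17, adjusted p = 9.09e-06). Without tumours 14, 33, 63 and 82 the ICT difference was 0.585 (adjusted p = 0.0591).

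Tnfrsf22 and Tnfrsf23 encode mouse decoy receptors for TRAIL, and Tnfrsf26 is their neighbour on chromosome 7. Tnfrsf22 had means of 723 ± 75.7 with PBS (SD, n = 10), 583 ± 34.4 with tretinoin (n = 9), 677.1 ± 83.03 with ICT (n = 10) and 560 ± 118 with Tretinoin+ICT (n = 10). It fell by 0.31 on the log2 scale with tretinoin (adjusted p = 0.000805) and by 0.37 with the combination (adjusted p = 0.00454), and its ICT value of -0.10 did not pass the test (adjusted p = 0.333). Tnfrsf23 fell by 0.21 with tretinoin (adjusted p = 0.0473), which was -0.18 without tumours 14, 33, 63 and 82 (adjusted p = 0.0996), and was -0.02 with ICT and -0.09 with the combination (adjusted p = 0.13). The pair shares 377 stretches of 100 bases, 9.31% of those of Tnfrsf23, so part of their reads could be counted for either. Tnfrsf22 shares 663 stretches (15.8%) with Tnfrsf23 or with other genes, such as Gm47486 (283), so its counts are also uncertain beyond the pair. Tnfrsf26 did not fall with them, and against PBS it was called, upward, only with the combination. It was 0.01 with tretinoin (adjusted p = 0.968), 0.51 with ICT (adjusted p = 0.0565) and 0.73 with Tretinoin+ICT (adjusted p = 0.00259).

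Tnfrsf9, at chr4:150914562-150946102 (GRCm38, plus strand), encodes 4-1BB, a costimulator that appears on T and NK cells after activation. Its normalized count was 213 to 498 in PBS (median 268), 283 to 1086 in tretinoin (median 461), 240 to 1325 in ICT (median 435) and 444 to 1226 in Tretinoin+ICT tumours (median 635). The highest tumours of the first 3 groups were 14, 33 and 63, and 8 of 10 combination tumours were above every PBS tumour. The log2 fold change was 0.77 with tretinoin (SE 0.22, adjusted p = 0.0178), 0.86 with ICT (SE 0.26, adjusted p = 0.0234) and 1.35 with Tretinoin+ICT (SE 0.20, adjusted p = 2.48e-05). Across the 4 pairs of name series the tretinoin difference was between 0.246 and 1.127. Of the 4 NK cell markers 1 rose with tretinoin, 3 with ICT and 4 with the combination, and their summed level was 582 to 1622 in PBS, 637 to 2011 in tretinoin, 507 to 3949 in ICT and 1115 to 3511 in Tretinoin+ICT tumours. Their part in the rise of Tnfrsf9 was not tested.

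Tnfrsf8 and Tnfrsf14 rose as well. Tnfrsf8 encodes CD30, a receptor of activated lymphocytes, and was a low transcript, at 8.81 to 34.1 normalized counts in PBS (median 15.2), 20.8 to 52.9 in tretinoin (median 38.2), 15.9 to 66.7 in ICT (median 23.6) and 21.18 to 77.96 in Tretinoin+ICT tumours (median 37.4). Its log2 fold change was 1.004 with tretinoin (SE 0.22, adjusted p = 0.00332), 0.69 with ICT (SE 0.27, adjusted p = 0.0707) and 1.28 with the combination (SE 0.26, adjusted p = 0.000379). Tnfrsf14 encodes HVEM, a receptor on lymphoid and myeloid cells that also binds the inhibitory receptor BTLA. It was at 185 to 643 in PBS (median 329), 420 to 1104 in tretinoin (median 551), 202 to 1367 in ICT (median 652) and 453 to 1061 in Tretinoin+ICT tumours (median 800). Its log2 fold change was 0.89, 0.91 and 1.14 in the same order (adjusted p = 0.00557, 0.0182 and 3.67e-05). Tnfrsf25 (DR3), a T cell receptor with a death domain, rose by 0.64 with tretinoin (adjusted p = 0.00875) and 0.61 with Tretinoin+ICT (adjusted p = 0.0046), and was 0.28 with ICT (adjusted p = 0.243). Its tretinoin difference varied widely across the 4 pairs of name series, from 0.142 to 1.105.

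Tnfrsf4 and Tnfrsf18, neighbours at chr4:156013843-156016612 and chr4:156026164-156028895 (GRCm38, plus strand), were called by edgeR in 0 of the 7 tests. The normalized count of Tnfrsf4 was 108 to 241 in PBS (median 154), 90.0 to 308 in tretinoin (median 174), 91.1 to 210 in ICT (median 123) and 109 to 201 in Tretinoin+ICT tumours (median 166). That of Tnfrsf18 was 117 to 269 in PBS (median 201), 154 to 344 in tretinoin (median 220), 145 to 319 in ICT (median 175) and 148 to 278 in Tretinoin+ICT tumours (median 192). All 4 groups overlapped for both. For Tnfrsf4 the log2 fold change with ICT was -0.29 (95% interval -0.59 to 0.02) and with the combination -0.01 (-0.28 to 0.27). For Tnfrsf18 the values were -0.02 (-0.31 to 0.28) and 0.00 (-0.27 to 0.27). Without tumours 14, 33, 63 and 82 Tnfrsf4 passed the test with ICT at -0.40 (adjusted p = 0.0216). The exons of Tnfrsf18 lie opposite the antisense gene Gm16008 over 27.2% of their bases.

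Foxp3, which defines regulatory T cells, fell with ICT, while neither receptor passed the test. Foxp3 stood at 213 to 363 normalized counts in PBS (median 279), 149 to 382 in tretinoin (median 262), 104 to 219 in ICT (median 169) and 77.2 to 299 in Tretinoin+ICT tumours (median 146). It fell by 0.80 on the log2 scale with ICT (adjusted p = 0.000867) and by 0.79 with the combination (adjusted p = 0.00052). Foxp3 is 1 of 5 regulatory T cell markers listed, and the others did not all move with it. With ICT 2 of the 5 fell, Foxp3 and Ctla4 (by 0.77), and 0 rose. With the combination the same pair fell (Ctla4 by 0.42) and Il2ra and Ikzf4 rose, by 0.46 and 0.73. With tretinoin 0 of the 5 passed the test. The ratios to Foxp3 therefore rest on a single marker. Cd3e, a subunit of the T cell receptor complex, had a log2 fold change of -0.03 with ICT (adjusted p = 0.952) and 0.09 with the combination (adjusted p = 0.649). To ask whether each receptor moved more or less than these transcripts, log2 ratios of normalized counts (each plus 1) of Tnfrsf4, Tnfrsf9 and Tnfrsf18 to Foxp3 or Cd3e were compared in 36 permutation tests, all two-sided and adjusted together by Benjamini-Hochberg, which were exact for groups under 10 tumours. Of these, 15 passed, and the ones against PBS are given below. The remaining passes came from comparisons of Tretinoin+ICT with a single agent and are not listed here.

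Against PBS the ratio to Foxp3 was higher for all 3 receptors with ICT and with Tretinoin+ICT. The ratio of Tnfrsf4 was 1.44-fold higher with ICT (above the PBS median in 10 of 10 tumours, permutation test, adjusted p = 0.00162) and 1.80-fold higher with the combination (10 of 10, adjusted p = 0.000334). That of Tnfrsf18 was 1.74-fold and 1.81-fold higher (10 of 10 in each, permutation test, adjusted p = 0.00036 for both). That of Tnfrsf9 was 2.93-fold and 4.45-fold higher (10 of 10 in each, permutation test, adjusted p = 0.00036 and 0.000334). With tretinoin alone Tnfrsf9 was 1.72-fold higher relative to Foxp3 (9 of 9, exact permutation test, adjusted p = 0.000334) and Tnfrsf18 1.24-fold (8 of 9, exact permutation test, adjusted p = 0.0236), and Tnfrsf4 did not pass (1.14-fold, 9 of 9, exact permutation test, adjusted p = 0.0835). Relative to Cd3e only Tnfrsf9 passed, at 1.26-fold with tretinoin (9 of 9, exact permutation test, adjusted p = 0.0236), 1.89-fold with ICT (10 of 10, permutation test, adjusted p = 0.000334) and 2.36-fold with the combination (10 of 10, permutation test, adjusted p = 0.000334). Tnfrsf4 and Tnfrsf18 relative to Cd3e were between 0.841-fold and 1.13-fold of PBS, with adjusted p from 0.0795 to 0.788. With ICT and with Tretinoin+ICT the counts of Tnfrsf4 and Tnfrsf18 themselves passed no test and that of Foxp3 fell. With tretinoin neither the count of Tnfrsf18 (log2 fold change 0.22, adjusted p = 0.277) nor that of Foxp3 (-0.06, adjusted p = 0.767) passed the test.

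**Figure D4:**
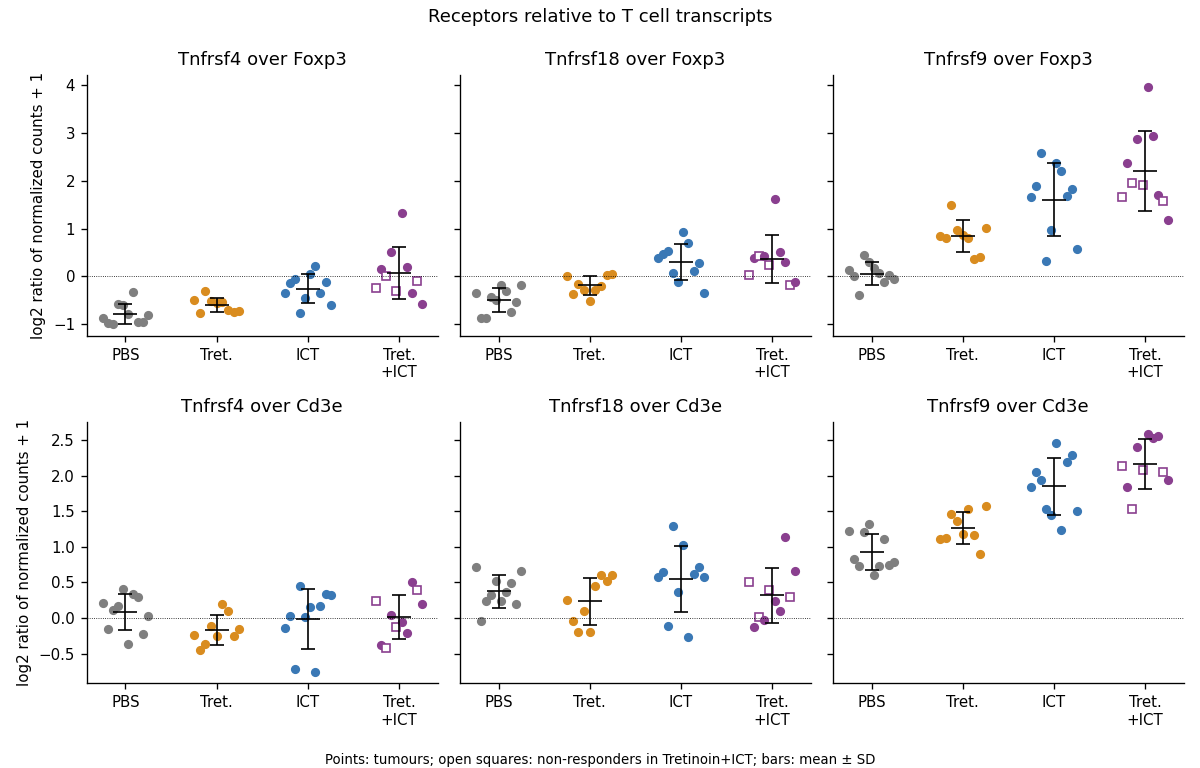
Log2 ratio (y axis) of the normalized count of Tnfrsf4, Tnfrsf18 and Tnfrsf9 to that of Foxp3 (upper row) and Cd3e (lower row) in each tumour of the 4 groups, each count plus 1. Points are tumours, open squares non-responders, and bars the mean and SD. All ICT tumours lie above the PBS median relative to Foxp3, and only the Tnfrsf9 panel rises relative to Cd3e.

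The ligands of these receptors were low. Tnfsf18, the ligand of GITR that endothelial and antigen presenting cells make, had 2.92 to 30.3 normalized counts in PBS (median 17.8), 4.90 to 20.5 in tretinoin (median 11.3), 3.97 to 15.2 in ICT (median 8.59) and 2.12 to 30.6 in Tretinoin+ICT tumours (median 8.63). It fell by 0.98 on the log2 scale with ICT (SE 0.32, adjusted p = 0.0333), with wide overlap between groups. The other values were -0.46 with tretinoin (adjusted p = 0.297) and -0.69 with the combination (adjusted p = 0.116). Tnfsf4, the ligand of OX40, had medians of 7.79 in PBS, 6.43 in tretinoin, 15.8 in ICT and 10.0 in Tretinoin+ICT tumours. The main fits tested it only in the combination against ICT (-0.58, adjusted p = 0.194), between responders and in the interaction. With ICT against PBS the alternatives called it higher, at 1.06 with DESeq2 (adjusted p = 0.00281), 1.04 with no filter (adjusted p = 0.0155) and 1.05 with all tumours in a single fit (adjusted p = 0.00688). DESeq2 did not call it with tretinoin (-0.17, adjusted p = 0.786) or the combination (0.47, adjusted p = 0.138). Its raw counts were at most 25 in any tumour. Tnfsf8, the ligand of CD30, was not called at 0.29, 0.21 and 0.24 against PBS. Tnfsf15, the ligand of DR3, had at most 22 raw counts in any tumour.

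Tnfrsf11a encodes RANK, the receptor through which osteoclasts and some myeloid cells differentiate. Its normalized count was 1252 to 1872 in PBS (median 1419), 936 to 1322 in tretinoin (median 1137), 1047 to 1821 in ICT (median 1415) and 877 to 1452 in Tretinoin+ICT tumours (median 1032). It fell by 0.38 on the log2 scale with tretinoin (SE 0.08, adjusted p = 0.0019) and by 0.41 with the combination (SE 0.09, adjusted p = 0.000917), while ICT gave -0.08 (SE 0.10, adjusted p = 0.595). The osteoclast-like markers moved with it. Of the 4 tested, 3 fell with tretinoin (Acp5, Ctsk and Atp6v0d2, by 1.15, 1.08 and 1.44 on the log2 scale), 0 with ICT and 4 with Tretinoin+ICT. Their summed level was 4322 to 20140 in PBS (median 8497), 1842 to 7912 in tretinoin (median 2929), 3527 to 17900 in ICT (median 7377) and 2016 to 7341 in Tretinoin+ICT tumours (median 3250). Their part in the fall of Tnfrsf11a was not tested. Tnfsf12 (TWEAK) rose by 0.29 with the combination (adjusted p = 0.0382), at 329 to 454 normalized counts in PBS and 362 to 794 in Tretinoin+ICT tumours, a call lost without tumours 14, 33, 63 and 82 (0.285, adjusted p = 0.0543).

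Superfamily genes whose symbols are outside the name rule were taken from a list of 15, of which 13 were in the table. Of the 11 tested, 4 rose and 0 fell with tretinoin, beside 11.5% and 8.95% of all genes. With ICT 3 rose and 1 fell, beside 14.1% and 7.15%. With Tretinoin+ICT 6 rose and 2 fell, beside 25.7% and 24.5%, so the falls were no more frequent than among all genes. Cd40, the costimulatory receptor of antigen presenting cells, was at 128 to 421 normalized counts in PBS (median 208) and 364 to 1145 in Tretinoin+ICT tumours (median 627), with log2 fold changes of 0.833, 1.0003 and 1.66 in the 3 comparisons (adjusted p = 0.0317, 0.0154 and 1.73e-05). Relt, an orphan receptor named here after its values were seen, rose by 0.45, 0.55 and 1.02. With the combination Ltb rose by 0.60 and Fasl, the death ligand of cytotoxic cells, by 1.02. Ltb also rose with tretinoin (0.42). Cd27, a costimulator of naive and memory T cells, fell by 0.71 with Tretinoin+ICT (adjusted p = 0.00244), and Eda2r, also named after its values were seen, fell by 0.67 there and by 0.35 with ICT. Ltbr stayed within 0.04 to 0.06 of PBS and was not called. Cd40lg was too low for the fits against PBS.

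Downstream of the receptors, 26 of the 29 listed signalling genes were in the table. With tretinoin 4 rose and 1 fell, with ICT 11 rose and 0 fell, and with Tretinoin+ICT 17 rose and 2 fell, beside 11.5%, 14.1% and 25.7% of all genes that rose, so the tretinoin count lay near the share of all genes. Tnfaip3, which encodes the NF-kB inhibitor A20, had the largest rise in all 3, at 0.90, 0.96 and 1.16 on the log2 scale (adjusted p = 7.68e-05, 0.00429 and 1.76e-06). Birc3 and Birc2 rose by 0.54 and 0.47 with ICT. In the combination Birc3 and Nfkb1 rose by 0.67 and 0.52, and Traf3 and Map3k7 fell by 0.21 and 0.10. With tretinoin Casp8 fell by 0.10 and Traf5 rose by 0.27.

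Whether either agent added to the other was asked by comparing Tretinoin+ICT with each agent alone. Against ICT, 1 of 20 members was upregulated, Tnfrsf1b (log2 fold change 0.50, SE 0.13, adjusted p = 0.0465), beside 1.57% of all genes, and 0 were downregulated (0.422%) or passed the fold minimum (0.394%). Each of the 10 combination tumours was above the ICT median for Tnfrsf1b, and the groups overlapped. The call was lost with DESeq2 size factors (adjusted p = 0.0506) and with no filter on low counts (adjusted p = 0.0661), where 0 members were called. By unadjusted p below 0.05 the count was 10, beside 18.1% of all genes, and DESeq2 called 3 members and 3.7% of genes. The ICT group held the high tumours 63 and 82. The count was 4 without tumour 63 (6.19% of genes), 2 without tumour 82 (2.13%) and 11 without tumours 14, 33, 63 and 82 (16.9%). The 11 included Tnfsf13b (0.98, adjusted p = 0.00186), Tnfrsf9 (0.88, adjusted p = 0.0202), Tnfsf10 (0.80, adjusted p = 0.0198) and Tnfrsf4 (0.47, adjusted p = 0.0277). Those tumours had been picked out in earlier results for their high immune cell scores, so this count is no independent support. Of the signalling genes, Map3k14, which encodes the kinase NIK of the alternative NF-kB pathway, rose by 0.39 against ICT (adjusted p = 0.000766), from a median of 965 to 1229 normalized counts.

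Against tretinoin, 3 members were upregulated (12.3% of genes) and 0 were downregulated (9.01%) or passed the fold minimum (2.08%). They were Tnfrsf13b (log2 fold change 0.47, adjusted p = 0.0169), Tnfrsf1a (0.46, adjusted p = 0.00137) and Tnfrsf26 (0.72, adjusted p = 0.0277), and DESeq2 called 4. All 3 had not been called with tretinoin alone. Tnfrsf1b was -0.06 in this comparison (adjusted p = 0.577, 95% interval -0.21 to 0.09). The interaction of tretinoin and ICT over all 39 tumours was called in 0 of 22 members by edgeR and by DESeq2, against 0.0401% of genes in the positive and 0.267% in the negative direction, and 2 had an unadjusted p below 0.05, a share close to that of all genes (9.45%). These were Tnfrsf1b (-0.42, 95% interval -0.73 to -0.12, adjusted p = 0.331) and Tnfrsf14 (-0.66, adjusted p = 0.524). A negative value means that the combination was below the sum of the separate effects on the log2 scale, and for other members the intervals were wide, as for Tnfrsf9 (-0.28, -1.004 to 0.44).

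Between responding and non-responding mice given Tretinoin+ICT, 0 of 21 members passed edgeR's test, and the same held for 0% of genes in either direction and past the fold minimum. An unadjusted p below 0.05 was given to 12 members and 22.6% of all genes, and DESeq2 called 6 members and 9.73% of genes. Of the 6, 5 were higher in responders (Tnfrsf9, Tnfrsf26, Tnfrsf18, Tnfrsf4 and Tnfrsf13b) and 1, Tnfrsf11a, was lower. Of the 21 members 17 had a positive log2 fold change, with a median of 0.34, whereas the median of all genes was 0.01. Leaving out each of the 10 tumours in turn, edgeR called 0 members in 9 fits and 7 without tumour 43, a responder.

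Tnfrsf9 and Tnfrsf18 separated the groups. For Tnfrsf9 the 4 non-responders were at 462, 444, 507.1 and 526.2 normalized counts, and the 6 responders at 594 to 1226 with a median of 948. For Tnfrsf18 the non-responders were at 148, 153, 158 and 155 and the responders at 176 to 278 with a median of 230. In both genes every responder was above every non-responder, and no other member did so. Such a gap in favour of responders was found in 2 of 21 members and 2.17% of all genes, and the opposite in 0 members and 3.28% of genes. The log2 fold change was 0.93 for Tnfrsf9 (SE 0.19, adjusted p = 0.0841) and 0.57 for Tnfrsf18 (SE 0.13, adjusted p = 0.0841). Tnfrsf26 had non-responders at 93.0, 138, 93.2 and 120 and responders at 136 to 297 (log2 fold change 0.95, SE 0.22, adjusted p = 0.0841), with an overlap of 1 tumour on each side. Tnfrsf4 had non-responders at 123, 114, 109 and 166 and responders at 143 to 201 (log2 fold change 0.52, SE 0.15, adjusted p = 0.0942).

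In name series 2, with 2 responders and 3 non-responders, the means of Tnfrsf9 were 948 and 471. In series 4, with 4 responders and 1 non-responder, they were 905.7 and 526.2. Those of Tnfrsf18 were 206 and 153 in series 2 and 237 and 155 in series 4. Tnfsf18 stood at 2.12 to 10.4 in responders and at 7.15, 17.2, 12.7 and 30.6 in non-responders (log2 fold change -1.24, SE 0.43, adjusted p = 0.124). Without tumour 44, the non-responder at 30.6, its log2 fold change was -0.79 (edgeR adjusted p = 0.368). Tnfrsf11a was at 877 to 1129 in responders and 1452, 1387, 1212 and 1006 in non-responders (log2 fold change -0.34, SE 0.11, adjusted p = 0.103), but its means in series 4 were 1016 and 1006. No marker list had a gene called between responders and non-responders. The summed T cell markers were at 1286 to 2383 in responders and 1142 to 1518 in non-responders. The summed macrophage markers were at 63420 to 73890 and 50250 to 59640, which do not overlap. Taken singly, the macrophage markers Csf1r, Cd68, Mrc1, C1qa and C1qb each overlapped between the groups. The 4 osteoclast-like markers tested had a median log2 fold change of -0.87, with 3 at an unadjusted p below 0.05, and their summed level was 2016 to 3999 in responders and 2451 to 7341 in non-responders. Relative to Foxp3 or Cd3e, 0 of the 6 receptor ratios differed between responders and non-responders (Tnfrsf9 to Cd3e 1.28-fold, higher than the non-responder median in 4 of 6, exact permutation test, adjusted p = 0.189). The part of cell content in these differences was not tested.

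**Figure D5:**
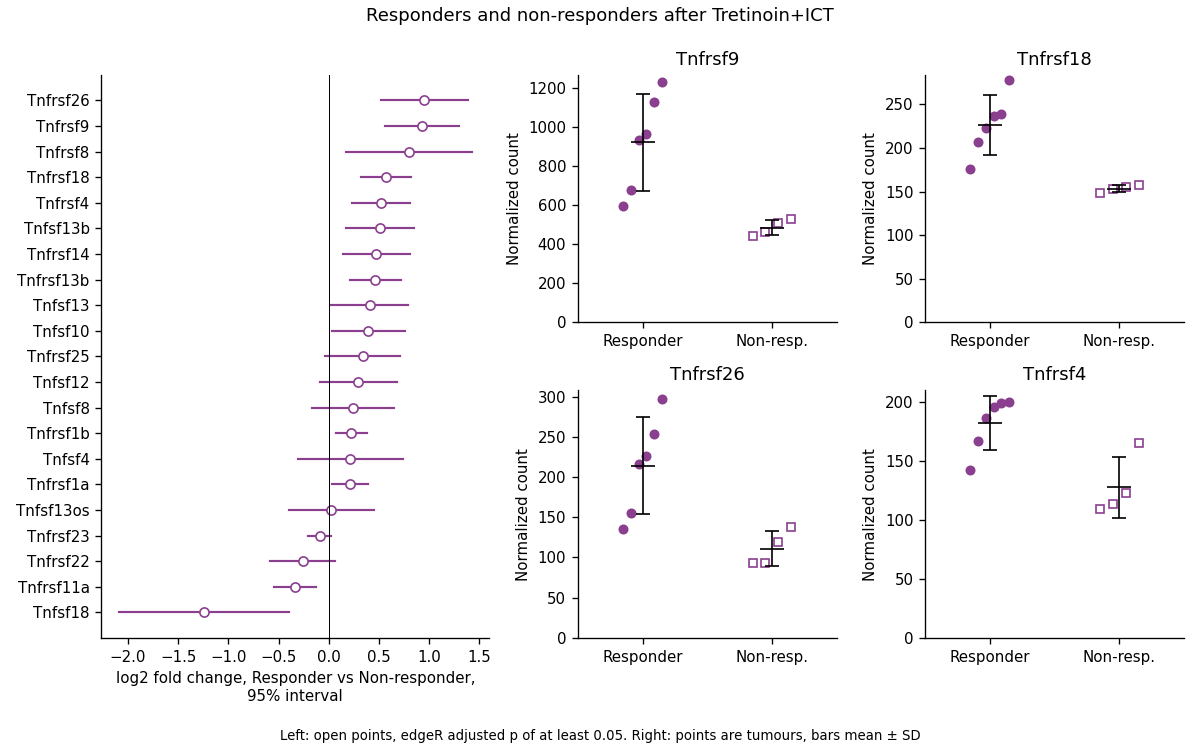
Left, log2 fold change with 95% interval (x axis) of the 21 members tested between 6 responder and 4 non-responder tumours, all open since no edgeR adjusted p was below 0.05. Right, normalized count (y axis, from 0) of Tnfrsf9, Tnfrsf18, Tnfrsf26 and Tnfrsf4, where points are tumours and bars the mean and SD. The responders lie above all non-responders for Tnfrsf9 and Tnfrsf18.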

How the data were processed

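RNA from 39 whole tumours was sequenced by the authors as single-end reads of 100 bases on a NovaSeq instrument. Reads were demultiplexed with bcl2fastq (2.20.0.422) and aligned with HISAT2 (2.0.4), per the submitters' processing notes, to a genome the study names mm11, and were counted on genes with SummariseOverlaps. The authors deposited raw counts per gene, without normalization. Strand mode and the handling of reads with several alignments are not given in the sources used here, so antisense and readthrough genes cannot be separated from the members they overlap.

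The main test on these counts was edgeR's quasi-likelihood F test (TMM normalization, filterByExpr, robust fits, only the tumours compared) and adjusted by Benjamini-Hochberg over all genes tested. Members were called at an adjusted p below 0.05 and counted again where they differed by 1 or more on the log2 scale, the thresholds of the study, which used DESeq2. Normalized counts are raw counts divided by DESeq2's size factors. Receptor ratios were compared by two-sided permutation tests with a pseudocount of 1 and 100000 resamples, or exactly for groups under 10 tumours. Fits were tested on simulated data. False calls made up 8.51% of the calls in Tretinoin+ICT against PBS and 5.94% between responders and non-responders. Both exceed the rate that an adjusted p below 0.05 allows, and the other tests gave 2.26% to 4.05%. In the comparison of responders and non-responders, over 14615 genes, 75% of changes of 1 and 20% of changes of 0.5 on the log2 scale were recovered. There the simulated spread was estimated without regard to response and so includes any response difference. The recovered shares are therefore not those of the real fit. Changes were set only in genes above a floor on the mean raw count. The recovered shares also do not cover the low members Tnfrsf17, Tnfsf4, Tnfsf15, Tnfsf18, Tnfrsf8 and Tnfsf13os. Exon lengths and positions came from GENCODE M21 on GRCm38, where 22 of the 23 members matched with their version (not Tnfrsf14).

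Genes were named by rule: members with an adjusted p below 0.05 in any of 7 tests, a fixed list of receptors and ligands of interest, 10 superfamily genes with other symbols, and up to 3 signalling genes called upward and 3 called downward, taken by size of change. Members and lists were chosen with earlier results of these data known. Each tumour came from its own mouse, so p-values measure the spread between mice. The fits against PBS treated mice of the same name series as independent, so differences shared by a series are not accounted for. Libraries were checked for copies, and 0 pairs of tumours had identical counts. Alternatives were DESeq2, its size factors in edgeR, no filter on low counts, all tumours in a single fit, leaving out tumours, the name series as a block for response, and other pseudocounts for the ratios. 2 alternatives, leaving out tumour 63 or 82 alone against ICT, were chosen after seeing the data. A result for a marker gene in the combination is not reported here.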

Additional observations from a re-analysis of the deposited data

Results flagged for a closer look

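An outlying tumour was looked for in 138 sets of values (23 members in the 4 treatments and in responders and non-responders), of which about 1 in 20 is flagged by chance. 14 values in 11 members lay farther from the nearest tumour than Dixon's 95% limit allows. Tumour 14 held 6 of them in the PBS group, with normalized counts of 451 for Tnfrsf13b (next highest 351), 126 for Tnfsf8 (91.0), 2957 for Tnfrsf1b (2405), 498 for Tnfrsf9 (346), 816 for Tnfsf10 (560) and 643 for Tnfrsf14 (423). Tumour 52, also PBS, was at 74.9 for Tnfrsf25 (50.9).

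Tumour 33 of the tretinoin group was at 537 for Tnfrsf13b (next highest 408), 1086 for Tnfrsf9 (589) and 21.6 for Tnfsf15 (12.4). Tumour 63 of the ICT group was at 1325 for Tnfrsf9 (783) and 313 for Tnfrsf26 (194). In Tretinoin+ICT, tumour 44, a non-responder, was at 30.6 for Tnfsf18 (next highest 17.2), and tumour 45, a responder, at 794 for Tnfsf12 (549). Tumours 14, 33 and 63 were also the highest of their groups for the leukocyte marker Ptprc, at 7369, 7582 and 14140 normalized counts. The part of cell content in these values was not tested.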

How the results depend on the processing

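The counts of members called against PBS, in total and upward, were within 1.5 times the reported ones under all alternatives. The fold minimum was passed by 1 member in place of 2 for tretinoin, with DESeq2 size factors in edgeR and with no filter. For ICT it was passed by 1 in place of 0 with DESeq2, no filter or all tumours in a single fit. This member was Tnfsf4, which the main fit of ICT against PBS did not test. Without tumours 14, 33, 63 and 82, 2 members fell with ICT, 6 members (all upward) were called in Tretinoin+ICT against Tretinoin, and 11 (9 higher, 2 lower) against ICT. Against ICT the count was 3 (3 higher) with DESeq2, 0 with DESeq2 size factors or no filter, 4 (3 higher, 1 lower) with all tumours in a single fit or without tumour 63, and 2 (2 higher) without tumour 82, where the reported count was 1. Between responders and non-responders, DESeq2 called 6 (5 higher, 1 lower). Leaving out each tumour in turn gave 0 to 7 in total, 0 to 6 higher, 0 to 1 lower and 0 to 2 past the fold minimum, with all calls in the fit without tumour 43. Name series as a block gave 0 members. The interaction stayed at 0 under all 4 alternatives. The 15 receptor ratios were 15 with a pseudocount of 0.5 or raw counts and 16 without the 4 tumours. No called difference of a single member reversed. The calls lost were 6 with no filter on low counts, 3 without the 4 tumours, 1 with DESeq2 size factors (Tnfrsf1b against ICT, adjusted p = 0.0506) and 1 with all tumours in a single fit (Tnfsf10 with ICT, adjusted p = 0.0502). With no filter Tnfrsf23, Tnfsf10 and Tnfrsf9 were among those lost, with adjusted p between 0.0544 and 0.0895, and more genes entered the adjustment. The cause of these losses and of the other moves was not tested. No paired analysis was possible because the labels give no replicate numbers that groups share.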
